A study of Mus musculus with 39 samples.

Results

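Brown and beige fat cells burn fuel for heat. Uncoupling protein 1 (Ucp1) lets protons leak back across the inner mitochondrial membrane, so that the energy of respiration is released as heat, and the cells carry many mitochondria with a full respiratory chain to feed the leak. Noradrenaline from sympathetic nerves switches the programme on through beta-adrenergic receptors and cyclic AMP, and subcutaneous fat of the mouse is known as a depot in which beige cells appear among white adipocytes. The 8 genes described here are Ucp1, Cidea, Elovl3, Dio2, Cox7a1, Cox8b, Ppargc1a and Prdm16, which were chosen by name as genes of this programme, out of 29411 gene names on the array. They were read by 10 probes, with 2 probes each for Ucp1 and Ppargc1a and 1 for each of the others.

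Total RNA of subcutaneous adipose tissue from C57BL/6J mice was read on 39 Agilent arrays with a single dye. Weaned mice ate a low-fat control diet with 10% of calories from fat (LFC, 10 arrays), a high-fat diet with added sucrose and 60% of calories from fat (HFC, 11 arrays), or the high-fat diet together with KAL-1, an ethano-botanical formulation, at 5 µg (HF5), 20 µg (HF20) or 75 µg (HF75), with 6 arrays for each dose. The time points shared by LFC and HFC were Days 6, 10 and 14, Week 0 and then every 3 weeks up to Week 18. A single Day 1 array existed for HFC, and arrays of the KAL-1 diets began at Week 3. Weeks were counted from Day 14 in the study's methods, so Day 14 and Week 0 are nominally the same age. Sex is not given in the sources used here. Each diet had 1 array per time point, and the labels do not say how many mice an array stands for (the series' design text speaks of 3 biological replicates of each diet), so n counts arrays and the spread is that between arrays.

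A level below is the log2 of a probe's intensity minus the log2 of the 75th percentile of its array, so a level of 0 is that percentile and a difference of 1 is a doubling. Levels are compared between arrays for 1 gene at a time, since probes differ in brightness. The arrays had been scanned on 14 days and lay on 36 slides, the 75th percentile ran from 108 to 1285 intensity units, and between 49.3% and 87.8% of spots were well above background. The highest share was that of the HF20 array of Week 15, which also had 4936 outlier spots, against at most 474 on any other array. All 12 mature adipocyte genes were well above background on all 39 arrays, although such genes do not tell subcutaneous fat from other fat. Skeletal muscle genes varied far more, with a mean over 15 genes from -3.48 to 7.45, and 9 of the 15 were well above background on every array.

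The labels of 2 arrays conflict with the deposited table of ratios. At Week 12 the HF5 column of that table matched the array labelled HF20 (r = 0.999 over 40628 probes) and not the array labelled HF5 (r = 0.664), and the HF20 column matched the array labelled HF5 (r = 0.999) and not that labelled HF20 (r = 0.665). The title of the array labelled HF5 has a letter B after the week, where the HF20, HF75 and HFC titles of that week have an S, and the meaning of these letters is not given in the sources used here. Which labels are right cannot be told apart here. The array labels are used below, and results that rest on these arrays are also given with them exchanged or without Week 12.

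Promoter sequence is shown for the 4 members whose promoters show the motif pattern below or whose levels led the muscle relation. Of the 8 members, 6 had a RefSeq promoter that could be used (GRCm38.p6, the 250 bases before the transcript start), and these were searched on both strands for TGACG, the core of the element that cyclic AMP-responsive factors bind, and for AGGTCA, the half-site of nuclear receptors such as the PPARs and the thyroid hormone receptors. Matches stand in capitals, and sequences run 5′ to 3′ along the gene.
Ucp1, chr8:83290098-83290347, plus strand: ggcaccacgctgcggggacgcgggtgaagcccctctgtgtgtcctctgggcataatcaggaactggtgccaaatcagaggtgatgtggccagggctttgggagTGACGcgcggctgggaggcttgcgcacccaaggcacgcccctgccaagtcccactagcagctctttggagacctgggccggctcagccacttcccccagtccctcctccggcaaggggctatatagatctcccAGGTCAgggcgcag
Dio2, chr12:90739039-90739288, minus strand: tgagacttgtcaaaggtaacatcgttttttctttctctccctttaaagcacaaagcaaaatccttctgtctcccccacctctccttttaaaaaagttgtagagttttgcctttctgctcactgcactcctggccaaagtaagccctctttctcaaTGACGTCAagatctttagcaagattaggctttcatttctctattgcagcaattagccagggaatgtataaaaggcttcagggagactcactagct
Ppargc1a, chr5:51567726-51567975, minus strand: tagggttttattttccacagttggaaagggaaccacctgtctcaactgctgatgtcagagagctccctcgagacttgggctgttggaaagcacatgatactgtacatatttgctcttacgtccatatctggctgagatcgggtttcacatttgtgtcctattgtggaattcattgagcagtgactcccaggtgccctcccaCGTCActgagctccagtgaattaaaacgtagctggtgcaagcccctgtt
Cox7a1, chr7:30183921-30184170, plus strand: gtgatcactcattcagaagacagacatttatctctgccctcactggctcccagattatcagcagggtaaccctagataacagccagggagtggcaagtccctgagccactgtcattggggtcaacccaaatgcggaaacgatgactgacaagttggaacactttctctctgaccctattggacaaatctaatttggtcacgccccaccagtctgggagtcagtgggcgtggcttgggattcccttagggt
TGACG was present in 3 of the 6 promoters, against 17.8% of 32851 RefSeq promoters of this length. In Ucp1 it lay 147 to 143 bases before the start. In Dio2 it lay 95 to 91 bases before the start and, on the opposite strand, 92 to 88 bases before it, so that both matches overlap in 1 palindrome. In Ppargc1a it was on the opposite strand, 49 to 45 bases before the start. AGGTCA was found in 1 of the 6, in Ucp1 at 14 to 9 bases before the start, against 14.0% of all promoters. Cox7a1, Cox8b and Prdm16 held neither motif in this window. Cidea and Elovl3 were not searched. A match is only a run of letters, and enhancers farther away were not searched.

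Ucp1 varied more between arrays of a diet than between diets. Its probe was well above background on all 39 arrays, with levels from -3.91 to 6.51 and a median of -1.48. The highest levels were those of the array labelled HF20 at Week 12 (6.51), the HFC (6.48) and LFC (6.06) arrays of Day 6 and the LFC array of Day 10 (4.44). The spot was saturated on the HFC array of Day 6, so that level is a lower bound and which array was highest cannot be told. HFC at Week 3 (3.37), LFC at Week 9 (3.08), LFC at Week 12 (2.82), HFC at Day 10 (2.59) and HFC at Day 1 (2.05) came next. Neighbours in this order mostly differed by less than 1, which is within the difference between arrays of the same age. The lowest levels were those of HF75 at Week 3 (-3.36), HFC at Week 9 (-3.70) and both LFC (-3.91) and HFC (-3.81) at Week 6. The other Ucp1 probe moved with it over the arrays (r = 0.94) and was well above background on 22 of 39.

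**Figure D1:**
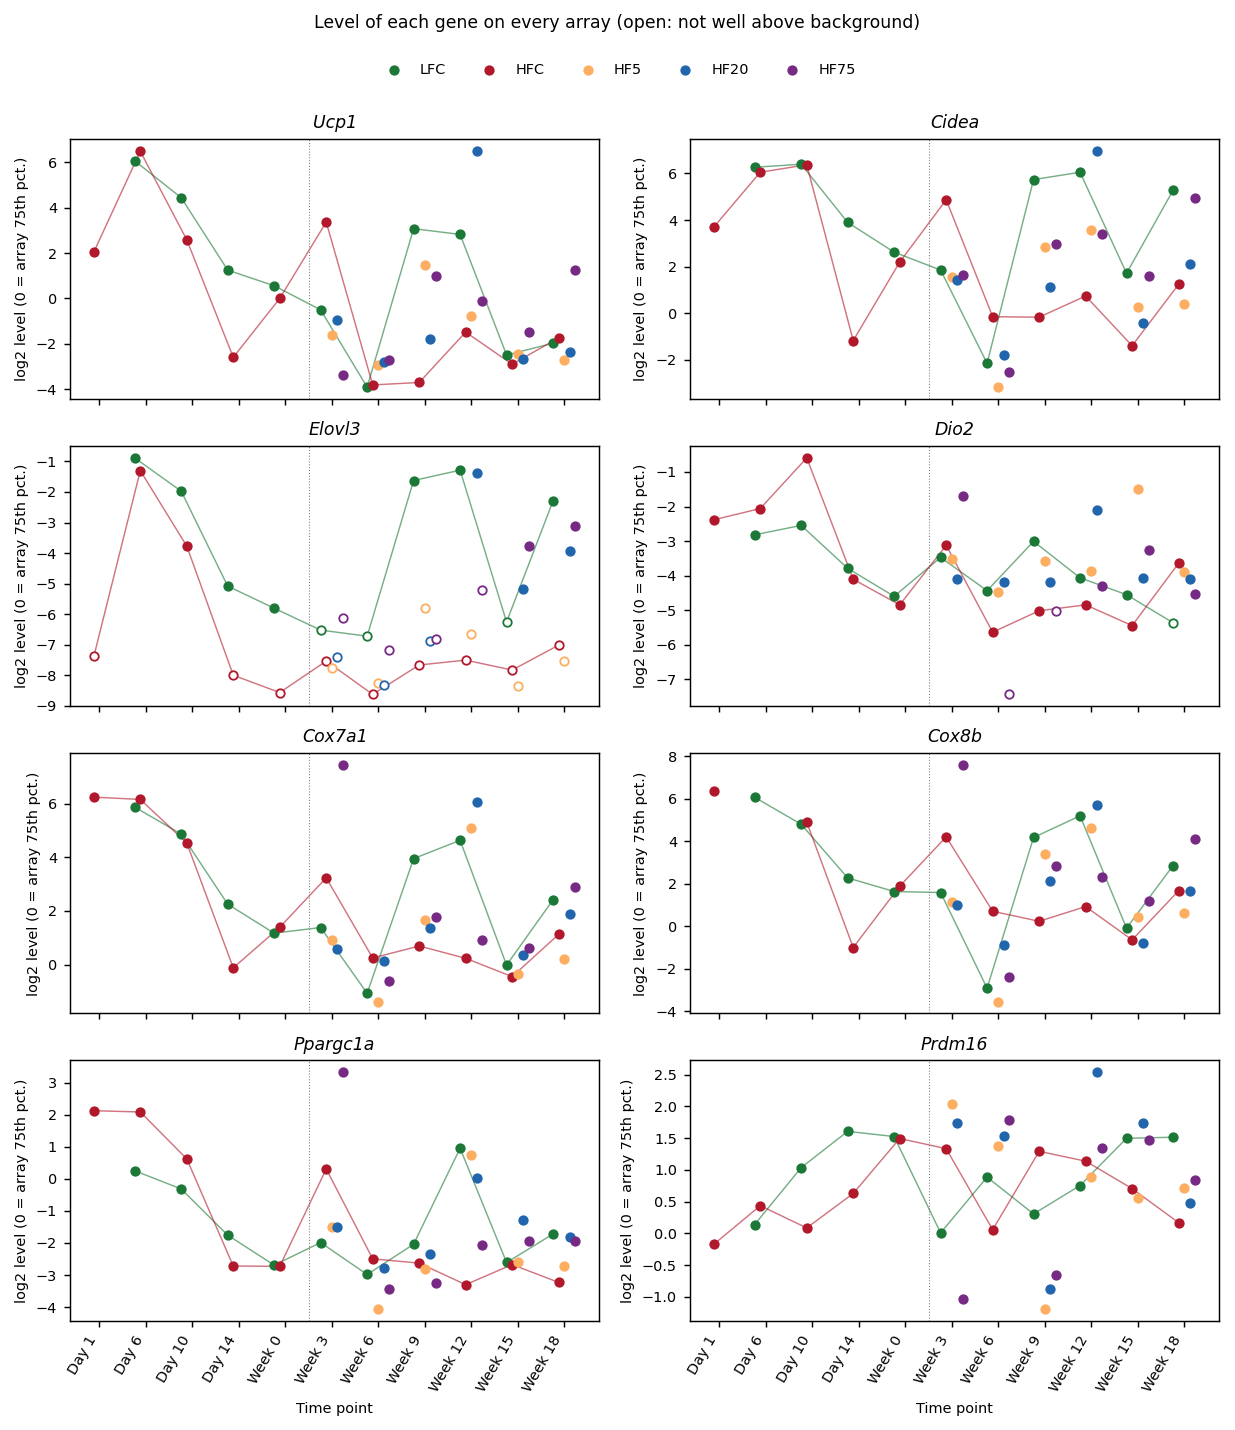
Levels of the 8 genes by time point, 1 panel per gene and 1 point per array, on the log2 scale relative to the 75th percentile of the array. Colours mark the 5 diets, open points were not well above background, and lines join the LFC arrays and the HFC arrays. Ucp1, Cidea, Cox7a1 and Cox8b stand high at Day 6 and Day 10 and low at Week 6, while Prdm16 stays between -1.19 and 2.54.

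By time of sampling, the mean of Ucp1 was higher at Day 6 and Day 10 than in the later periods. It averaged 4.89 ± 1.77 at Day 6 and Day 10 (SD, n = 4), -0.19 ± 1.68 at Day 14 and Week 0 (n = 4) and -1.06 ± 2.50 over Week 3 to Week 18 (n = 30). The Day 6 and Day 10 arrays ran from 2.59 to 6.48 and those of Day 14 and Week 0, scanned on other days, from -2.59 to 1.25. How many genes separate these arrays in the same way was not counted, and the later arrays overlapped with both. Within the later weeks, all 5 arrays of Week 6 were low (-3.91 in LFC, -3.81 in HFC, -2.93 in HF5, -2.82 in HF20 and -2.73 in HF75), as were all 5 of Week 15, from -2.90 to -1.48. At Week 9 and Week 12 the 5 diets spread over -3.70 to 3.08 and -1.48 to 6.51. The arrays of Week 15 shared a scan day and those of Week 6 came from 2 scan days, so for most time points age and scan day cannot be told apart.

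Cidea, a lipid droplet protein abundant in brown fat, stood high on all 4 arrays of Day 6 and Day 10. Its level was 6.05 (HFC) and 6.27 (LFC) at Day 6 and 6.37 (HFC) and 6.40 (LFC) at Day 10. Its spot was saturated on both Day 6 arrays and on the LFC array of Week 12, so these levels are lower bounds and the closeness of the 4 early values is not read. From Week 3 to Week 18 the mean was 1.69 ± 2.63 (SD, n = 30), with the highest measured level on the array labelled HF20 at Week 12 (6.98) and the lowest on HF5 at Week 6 (-3.17). At Day 14 the LFC array stood at 3.90 and the HFC array at -1.17, while at Week 0 they stood at 2.62 and 2.20.

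That pair of time points gauges how far 2 arrays of nominally the same age can differ, with scan day and slide differing as well. Over the 8 genes and both diets, the difference between Day 14 and Week 0 had a median size of 0.84, was over 1 in 6 of 16 pairs, and reached 3.36 for Cidea in HFC. A difference of this size between 2 single arrays is therefore within what arrays of nominally the same age showed.

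Elovl3, which lengthens saturated fatty acids in brown fat, was the member least often above background. It was well above background on 14 of 39 arrays. Those were 7 of 10 LFC arrays, 2 of 11 HFC arrays, 0 of 6 HF5 arrays, 3 of 6 HF20 arrays and 2 of 6 HF75 arrays. The highest levels were -0.88 in LFC and -1.30 in HFC at Day 6, -1.28 in LFC at Week 12, -1.36 on the array labelled HF20 at Week 12, -1.62 in LFC at Week 9 and -1.97 in LFC at Day 10. All 4 arrays of Day 6 and Day 10 were above background, with a mean of -1.98 ± 1.28 (SD, n = 4). Most of the arrays with detected Elovl3 were thus LFC arrays or arrays of the first 10 days.

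Dio2, the deiodinase that turns thyroxine into active thyroid hormone within the cell, was well above background on 36 arrays. Its highest levels were those of HFC at Day 10 (-0.59), HF5 at Week 15 (-1.49), HF75 at Week 3 (-1.69), HFC at Day 6 (-2.06) and the array labelled HF20 at Week 12 (-2.11). The 4 arrays of Day 6 and Day 10 ran from -2.82 to -0.59 with a median of -2.30. The mean was -4.34 ± 0.48 at Day 14 and Week 0 (n = 4) and -4.08 ± 1.19 over Week 3 to Week 18 (n = 30). Unlike Ucp1, Dio2 at Week 15 had its highest array in HF5, where Ucp1 was low (-2.47).

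Cox7a1 and Cox8b are subunits of cytochrome c oxidase in the forms that brown fat shares with heart and skeletal muscle. Cox7a1 averaged 5.35 ± 0.78 at Day 6 and Day 10 (SD, n = 4), 1.17 ± 0.98 at Day 14 and Week 0 (n = 4) and 1.53 ± 2.12 from Week 3 to Week 18 (n = 30). Cox8b averaged 5.26 ± 0.71 (n = 3, since 1 flagged spot was left out), 1.19 ± 1.49 (n = 4) and 1.63 ± 2.56 (n = 30) over the same times. The highest measured level of both was on the HF75 array of Week 3, at 7.43 for Cox7a1, where the spot was saturated, and 7.59 for Cox8b. Saturated spots were also found for Cox7a1 on the HFC arrays of Day 1 and Day 6 and for Cox8b on the HFC array of Day 1, so these levels too are lower bounds. On the HF75 array of Week 3 Ucp1 was at -3.36 and Elovl3 was not well above background. The subunits followed each other closely over the arrays (r = 0.95, n = 38), and the level of Acta1, skeletal muscle actin, was 7.67 on that array. The Acta1 spot was saturated there and on the HFC arrays of Day 1 and Day 6 and the array labelled HF5 at Week 12, so the order of these arrays cannot be read.

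Ppargc1a and Prdm16 are regulators. Ppargc1a, a coactivator that drives mitochondrial genes in brown fat and in muscle, was at its highest on HF75 at Week 3 (3.33), HFC at Day 1 (2.13) and HFC at Day 6 (2.09). It averaged 0.66 ± 1.03 at Day 6 and Day 10 (SD, n = 4), -2.47 ± 0.48 at Day 14 and Week 0 (n = 4) and -1.88 ± 1.56 later (n = 30), and its other probe moved with it (r = 0.94). Prdm16, a transcription factor that steers cells to the brown and beige fate, had the narrowest range of the 8 genes, from -1.19 to 2.54, and averaged 0.42 ± 0.44, 1.31 ± 0.46 and 0.83 ± 0.93 over the same times. Its highest level was on the array labelled HF20 at Week 12 (2.54), and its lowest was on HF5 at Week 9 (-1.19).

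Over the LFC and HFC arrays, the later weeks (Week 3 to Week 18) were also set against the earlier time points (Day 6 to Week 0) in limma, a linear model that borrows the spread across genes. Of the 8 members 0 had a Benjamini-Hochberg adjusted p under 0.05, against 43 of 20603 genes (0.209%), while 2676 genes had an unadjusted p under 0.05. Ucp1 had the largest difference (-3.45, SE 1.22, limma adjusted p 0.24). Cidea had -2.11 (SE 1.14), Cox7a1 -1.90 (SE 0.87), Elovl3 -1.48 (SE 0.99), Cox8b -1.37 (SE 1.05), Dio2 -1.22 (SE 0.51), Ppargc1a -1.13 (SE 0.68) and Prdm16 -0.06 (SE 0.28). The 8 differences were all below 0, while 48.5% of all genes were above 0, and none passed. The 15 skeletal muscle genes had a median difference of -2.40, with 7 lower at an unadjusted p under 0.05, and the 12 mature adipocyte genes had a median of -0.74, against -0.02 over all genes. Macrophage (0.52) and lymphocyte (0.64) genes had medians above 0, that of endothelial genes was 0.06 and that of epithelial genes -0.25, and 0 genes of any of these lists were called in limma. Their part in the members' differences was not tested. Within Week 3 to Week 18, 0 members changed with the week in limma, against 20 of 21090 genes (0.0948%) and with 3274 genes at an unadjusted p under 0.05. The slopes ran from -0.05 per week for Ppargc1a to 0.17 per week for Elovl3 (limma adjusted p 0.19).

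The main question was whether the genes went up and down together on the same arrays. In limma, with the level of Ucp1 as the tested covariate over all 39 arrays and no other term, 6 of the 7 other members were higher where Ucp1 was higher. With time point and diet as covariates 1 member (Cidea) was called, and with the scan day 0 were. Over all genes tested, 2179 of 22710 (9.59%) were called in that direction and 3863 (17%) in either. Cidea changed by 0.81 per log2 unit of Ucp1 (SE 0.08, limma adjusted p 3.8e-09), Cox8b by 0.69 (SE 0.11, 4.9e-05), Cox7a1 by 0.58 (SE 0.09, 3.0e-05) and Elovl3 by 0.58 (SE 0.09, 6.1e-05). Ppargc1a, at 0.31 (SE 0.08, limma adjusted p 0.0051), and Dio2, at 0.22 (SE 0.06, 0.0083), had smaller slopes. Prdm16 did not pass, with a slope of -0.01 (SE 0.05, limma adjusted p 0.91).

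**Figure D2:**
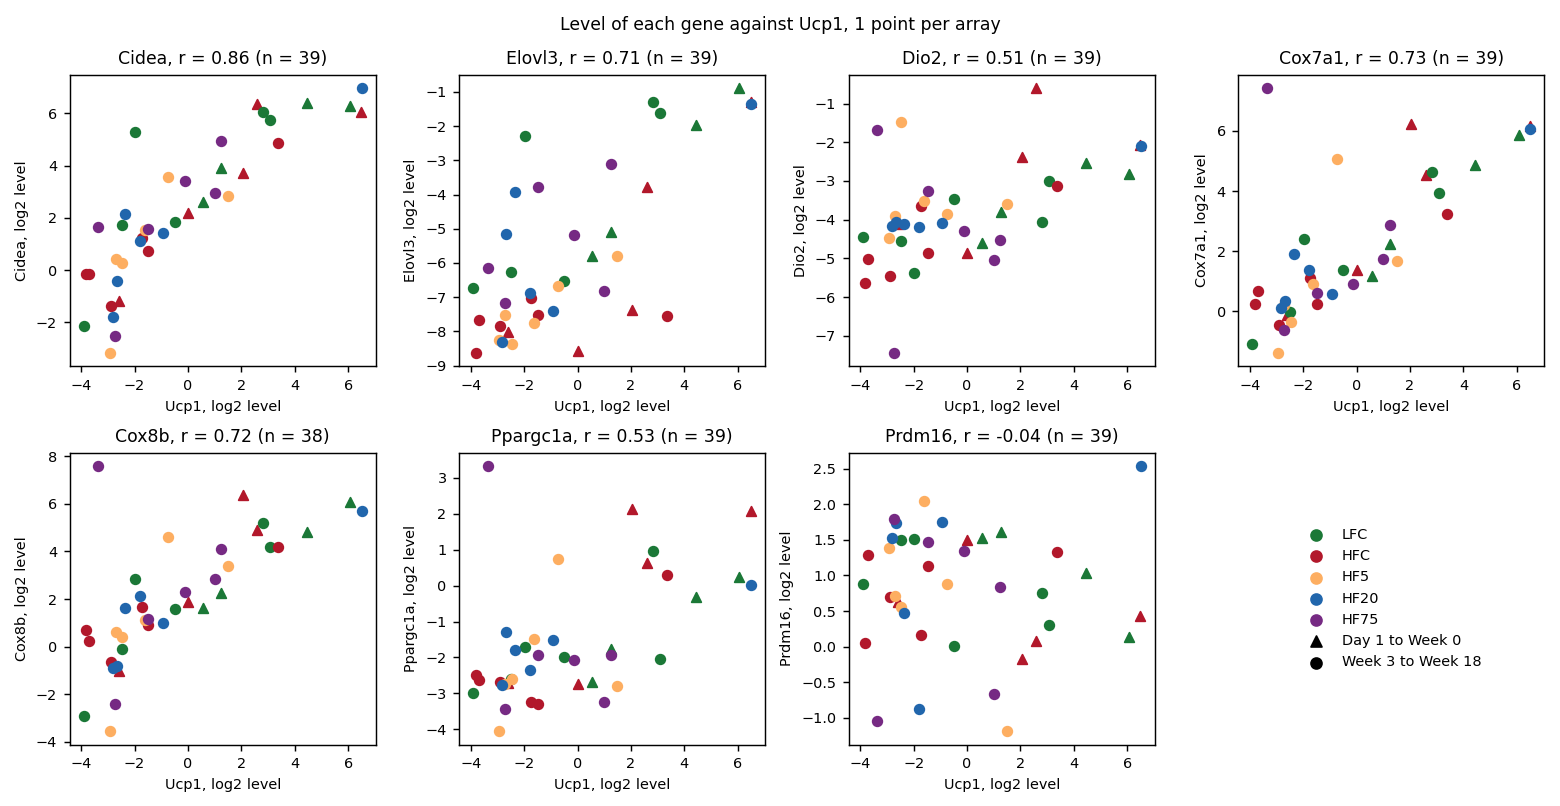
Level of each other member against the level of Ucp1, 1 point per array, both on the log2 scale relative to the 75th percentile of the array. Triangles are arrays of Day 1 to Week 0 and circles those of Week 3 to Week 18, coloured by diet. Cidea follows Ucp1 most closely (r = 0.86), Prdm16 shows no slope (r = -0.04), and for Cox7a1, Cox8b and Ppargc1a the HF75 array of Week 3 stands far above the rest at low Ucp1.

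As correlations over the arrays, Pearson's r with Ucp1 was 0.86 for Cidea (Spearman's rho 0.89), 0.73 for Cox7a1 (0.74), 0.72 for Cox8b (0.77, n = 38) and 0.71 for Elovl3 (0.61). For r, each had a permutation p of 1e-05, the smallest that 100000 resamples can give (Benjamini-Hochberg adjusted 1.75e-05 over the family of 7). Ppargc1a had r = 0.53 and rho = 0.49 (permutation p 0.00066 and 0.00187, adjusted 0.000852 and 0.00218), and Dio2 had r = 0.51 and rho = 0.52 (permutation p 0.00073 and 0.001, adjusted 0.000852 and 0.0014). Prdm16 had r = -0.04 and rho = -0.09 (permutation p 0.829 and 0.584). The rho of Cidea, Cox7a1 and Cox8b also had the smallest p, and that of Elovl3 had a permutation p of 5e-05 (adjusted 8.75e-05). These p-values treat arrays as independent, although arrays of a time point share age and mostly a scan day. Without the 2 arrays farthest from the median of Ucp1, r was 0.85 for Cidea, 0.66 for Cox7a1, 0.70 for Cox8b, 0.62 for Elovl3, 0.44 for Ppargc1a, 0.42 for Dio2 and -0.17 for Prdm16. Each of the 6 called members thus had a positive r without them, but Dio2 no longer passed in limma (slope 0.21, limma adjusted p 0.0504).

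The same arrays carried most of the high levels. Of the 10 arrays highest in Ucp1, 8 were also among the 10 highest in Cidea, in Cox7a1, in Cox8b, in Ppargc1a and in Dio2, 7 were for Elovl3, and 1 was for Prdm16. The muscle genes Acta1 and Ckm and the adipocyte gene Adipoq shared 6. Over 22710 genes the median was 3, with 14.7% of genes sharing 6 or more and 1.89% sharing 8 or more. Over all 22710 genes the median r with Ucp1 was 0.01, the 90th percentile was 0.41 and the 99th percentile was 0.65. Cidea ranked 2 among them, Cox7a1 41, Cox8b 55 and Elovl3 76, whereas Ppargc1a ranked 1009, Dio2 1201 and Prdm16 12582. The first 4 lay above the 99th percentile, while Ppargc1a and Dio2 lay between the 90th and the 99th.

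Within batches and ages the relation was weaker for most members. After each array was centred on the mean of its time point, r with Ucp1 was 0.79 for Cidea, 0.61 for Elovl3, 0.45 for Cox8b, 0.39 for Cox7a1, 0.27 for Prdm16, 0.24 for Dio2 and 0.12 for Ppargc1a. Centred on the scan day, it was 0.76, 0.55, 0.35, 0.23, 0.26, 0.18 and -0.11 in the same order. Cidea had r above 0.5 both within time points and within scan days, and the oxidase subunits and Ppargc1a did not. Elovl3 was above background on 14 of 39 arrays, so its r and its slope rest mostly on background-level values. With time point and diet as covariates in limma, Cidea was the only one of 22710 genes called (slope 0.65, limma adjusted p 0.023), and 1504 genes had an unadjusted p under 0.05. When the Week 12 arrays of HF5 and HF20 were exchanged in that fit, 3 genes were called and Cidea was the only member among them (0.68, limma adjusted p 0.013). With the scan day as a covariate, 0 genes were called, with 1328 at an unadjusted p under 0.05. The exchange cannot alter the fit without covariates, since that fit does not use the labels.

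Within single diets the relation also differed between genes. For Cidea, r with Ucp1 ran from 0.74 (HF5) to 0.93 (HFC), and for Elovl3 from 0.41 (HF75) to 0.93 (HF5), the latter over values that were not above background on any array. Cox7a1 ran from -0.26 (HF75) to 0.95 (HF20), Cox8b from 0.04 (HF75) to 0.90 (LFC), Ppargc1a from -0.54 (HF75) to 0.87 (HFC), Dio2 from -0.17 (HF75) to 0.98 (HF20) and Prdm16 from -0.72 (HF5) to 0.52 (HF20). HF75 had the lowest value for 5 of the 7 genes, and it holds the Week 3 array with high oxidase subunits and low Ucp1. HF20 holds the array labelled HF20 at Week 12. Without Week 12 (n = 5), r in HF20 was 0.63 for Cidea, 0.59 for Cox8b, 0.30 for Ppargc1a, 0.17 for Cox7a1 and for Dio2, -0.11 for Prdm16 and -0.23 for Elovl3, so the high values of HF20 rest on that array. With the exchange, r in HF5 was 0.92 for Cidea, 0.97 for Cox7a1, 0.98 for Elovl3 and 0.24 for Prdm16, and r in HF20 was 0.63 for Dio2 and -0.23 for Elovl3. Over the 30 arrays of Week 3 to Week 18 alone, 4 members were called in limma, with 245 of 21089 genes called in all, and r was 0.82 for Cidea, 0.65 for Cox8b, 0.62 for Elovl3 and 0.60 for Cox7a1. Over the 9 arrays of Day 1 to Week 0 alone, 0 members and 0 genes were called, with 4358 genes at an unadjusted p under 0.05, while r was 0.91 for Cidea and for Elovl3, 0.88 for Cox7a1, 0.87 for Cox8b, 0.74 for Ppargc1a, 0.60 for Dio2 and -0.39 for Prdm16.

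**Figure D3:**
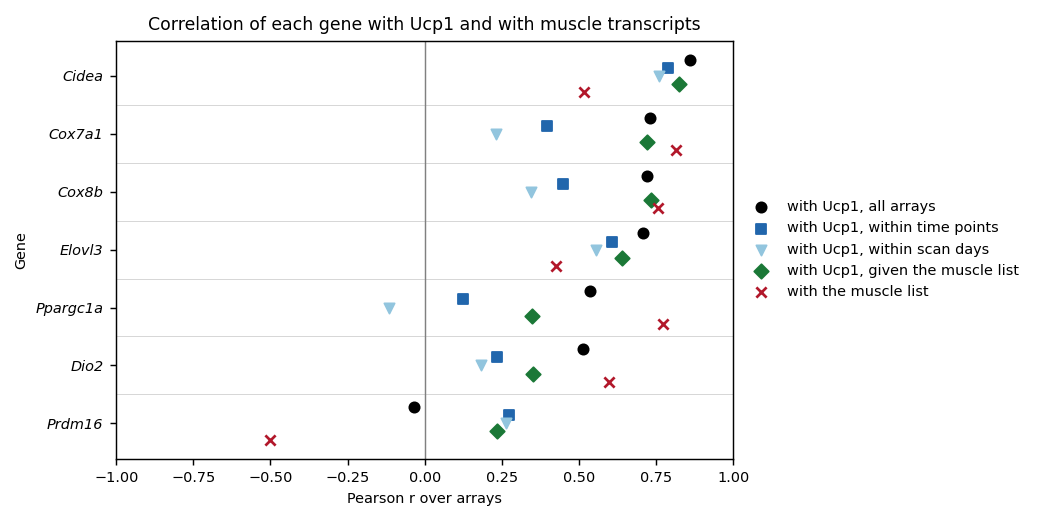
Pearson's r of each of the 7 other members, on the horizontal axis from -1 to 1, with the level of Ucp1 over all arrays, within time points, within scan days and given the skeletal muscle list, and r with the mean of 15 skeletal muscle genes. Cidea keeps r between 0.76 and 0.86 with Ucp1 throughout, whereas Cox7a1, Cox8b and Ppargc1a have a higher r with the muscle list (0.81, 0.76 and 0.77) than with Ucp1.

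Muscle transcripts moved with several of the same genes. The mean of the 15 skeletal muscle genes correlated with Ucp1 itself at r = 0.43, and with the members at 0.81 for Cox7a1, 0.77 for Ppargc1a, 0.76 for Cox8b, 0.60 for Dio2, 0.52 for Cidea, 0.43 for Elovl3 and -0.50 for Prdm16. With the muscle list in place of Ucp1, limma called all 7 of these members, 6 higher and Prdm16 lower, where 8102 of 22710 genes (35.7%) were called. The arrays high in muscle genes were HF75 at Week 3 (7.45), HFC at Day 1 (6.23), the array labelled HF5 at Week 12 (5.89), HFC at Day 6 (5.32), LFC at Day 6 (4.52) and HFC at Day 10 (3.39). On HF75 at Week 3 and the array labelled HF5 at Week 12, Cox7a1 was high (7.43 and 5.08) while Ucp1 was not (-3.36 and -0.75). The array labelled HF20 at Week 12 showed the reverse, with Ucp1 at 6.51, Cidea at 6.98, Cox7a1 at 6.07 and Cox8b at 5.69 but the muscle list at -0.40.

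With the muscle list held fixed, r with Ucp1 was 0.83 for Cidea, 0.73 for Cox8b, 0.72 for Cox7a1, 0.64 for Elovl3, 0.35 for Ppargc1a and for Dio2 and 0.23 for Prdm16. As a covariate in limma it left 4 of 7 members and 1380 of 22710 genes called with Ucp1, and Ppargc1a and Dio2 were the members lost. Without the 6 arrays highest in Acta1, limma called 6 members and 2082 genes. Mature adipocyte genes also moved with Ucp1 (r = 0.60 for the mean of 12 genes), and with that list as a covariate 4 members and 145 genes were called. The 5 arrays highest in Ucp1 had adipocyte means from 4.58 to 5.63, against 1.21 to 5.73 over all arrays. In bulk tissue, fewer cells of a type and less RNA per cell cannot be told apart.

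**Figure D4:**
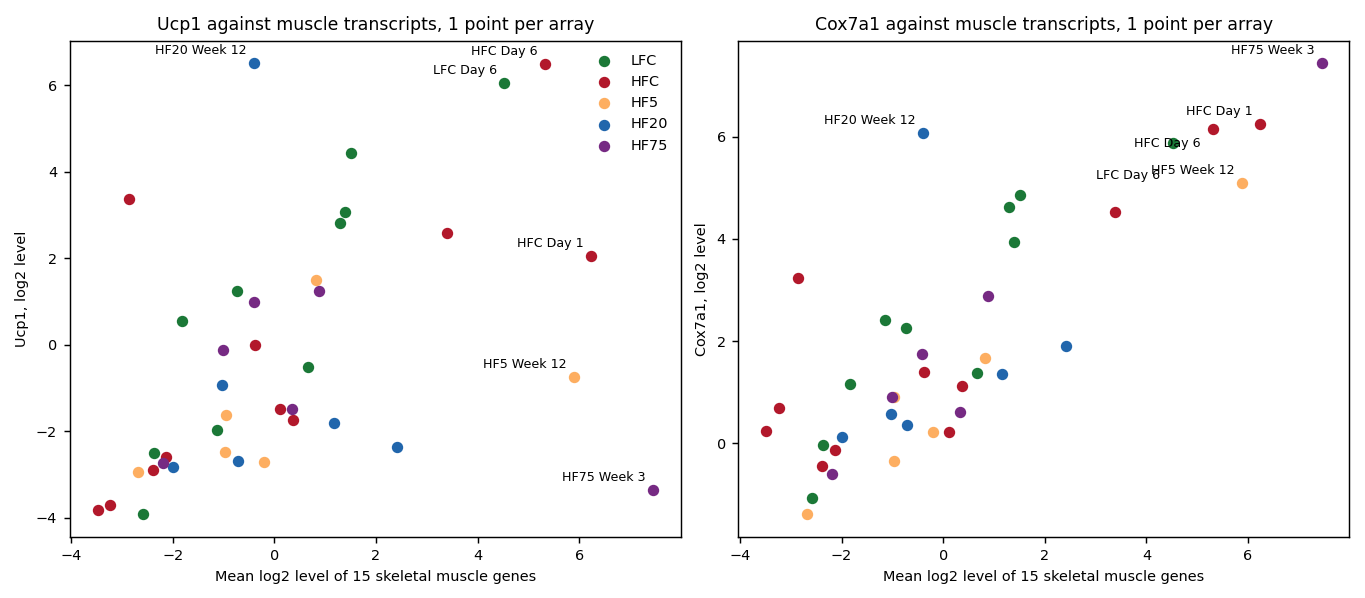
Level of Ucp1 (left) and Cox7a1 (right) against the mean level of 15 skeletal muscle genes, 1 point per array, both on the log2 scale relative to the 75th percentile of the array and coloured by diet. Cox7a1 follows the muscle list (r = 0.81) more closely than Ucp1 does (r = 0.43), and the array labelled HF20 at Week 12 has high levels of both genes with a muscle mean of -0.40.

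For the high-fat diet, LFC and HFC were compared over the 10 time points with both diets, with the time point as a block. In limma 0 of the 7 members tested passed, against 0 of 19874 genes (0%), and 1165 genes had an unadjusted p under 0.05. Cidea differed by -1.91 (HFC minus LFC, SE 0.89, limma adjusted p 0.80) and was lower in HFC at 8 of 10 time points, among them Day 6, where both spots were saturated and the order cannot be read. Ucp1 differed by -1.31 (SE 0.84, limma adjusted p 0.81) and was lower in HFC at 6 of 10, with single differences from -6.78 at Week 9 to 3.87 at Week 3. Cox7a1 differed by -0.84 (SE 0.56), Cox8b by -0.74 (SE 0.77), Prdm16 by -0.19 (SE 0.28), Ppargc1a by -0.19 (SE 0.53) and Dio2 by -0.07 (SE 0.37). The 7 values were below 0 and none passed, while 45.3% of all genes were above 0. Over the alternatives Dio2 turned positive in 6 of 23 and Ppargc1a in 3 of 24, among them quantile normalization for Dio2 (0.048). In the same comparison the median was -0.68 for skeletal muscle genes, -0.92 for lymphocyte genes, 0.41 for mature adipocyte genes and 0.62 for macrophage genes (4 of 9 higher at an unadjusted p under 0.05). With the muscle list as a covariate, limma called 0 members and 0 of 19874 genes, and with the adipocyte list 0 members and 2 genes. The part of the other lists was not tested. The diet difference did not pass as changing between the earlier and later time points for any of these genes either (0 of 19874 genes, 0%, with 375 at an unadjusted p under 0.05).

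Elovl3 was above background on too few arrays to enter that test. Its listed level was higher in LFC than in HFC at 10 of 10 time points, a pattern shared by 32 of 29116 genes (0.11%). Both diets were above background only at Day 6 (-0.88 and -1.30) and Day 10 (-1.97 and -3.77). Neither was at Weeks 3, 6 and 15, so the order there cannot be read and nothing is read from the count of 10. From Week 3 to Week 18, where all 30 arrays of the 5 diets were fitted together with the week as a block, Elovl3 was above background on 3 of 6 LFC arrays and on 0 of 6 HFC arrays. With the 3 undetected LFC values taken as measured, its mean level was at least 9.70-fold higher in LFC than in HFC. For this bound each HFC value was raised to the lowest signal measured above background on its array, or kept where it was already higher. With normexp background correction the fitted difference was -1.63 (HFC minus LFC, log2), smaller in size than this bound, so the bound holds only for the processed signals as scaled here. It did not pass in limma (-3.58, adjusted p 0.85), and that fit uses HFC values which were not well above background. The LFC levels in these weeks were lowest at Week 6 (-6.72) and highest at Week 12 (-1.28) with a median of -4.27, while HFC ran from -8.63 to -7.02 with a median of -7.60. Of the LFC values 3 were themselves not well above background.

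Under KAL-1, 0 of 8 members passed in limma for any dose against HFC or against LFC, against 0 of 21090 genes (0%) in each of these comparisons. Unadjusted p under 0.05 was found for 287, 907 and 1059 genes for HF5, HF20 and HF75 against HFC, and for 515, 601 and 766 genes against LFC. An unmoderated comparison of the group means also called 0 members. These comparisons share the HFC or the LFC arrays and are not independent of each other. Against HFC, the skeletal muscle genes had a median difference of 2.30 in HF5, 1.59 in HF20 and 2.94 in HF75. Of these 15 genes, 5, 4 and 7 were higher at an unadjusted p under 0.05 and 0 were called in limma. In the same order, macrophage genes had medians of -0.25, -0.71 and -0.74, lymphocyte genes 0.79, 1.34 and 0.09, and mature adipocyte genes -0.33, -0.53 and 0.25. The muscle and adipocyte lists were also used as covariates, among the alternatives below. The part of the other lists in the members' differences was not tested.

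**Figure D5:**
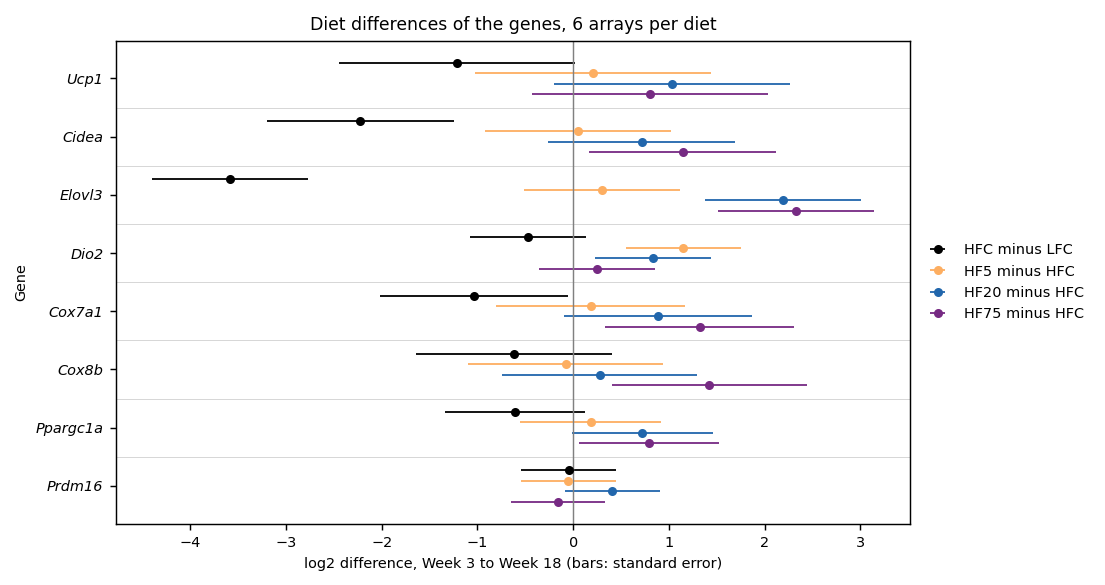
Log2 differences between diets for the 8 genes over Week 3 to Week 18, with the standard error of the limma fit as bars, for HFC against LFC and for each KAL-1 dose against HFC. The points of Elovl3 (-3.58 for HFC against LFC, 2.19 for HF20 and 2.33 for HF75 against HFC) rest on HFC values not well above background, and none of the differences passed the adjustment.

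In HF5 against HFC, Dio2 differed by 1.15, a value that was 0.59 without Week 15. In HF75 Elovl3 was above background at Week 15 (-3.77) and Week 18 (-3.12) only, and in HFC at none of the 6 weeks. With the 4 undetected HF75 values taken as measured, its mean was at least 4.07-fold higher in HF75 than in HFC, with a limma difference of 2.33 (SE 0.82, adjusted p 0.87). In HF20 it was above background at Week 12 (-1.36), Week 15 (-5.16) and Week 18 (-3.93) and, with the 3 other values taken as measured, at least 3.70-fold higher than in HFC in the mean, with a limma difference of 2.19 (SE 0.82, adjusted p 1.00). That value was 1.31 with the Week 12 arrays exchanged, where the bound fell to 2.01-fold, and 1.40 without Week 12, so part of it rests on the array labelled HF20 at Week 12. The HF20 array of Week 15 had by far the most outlier spots (4936) and the highest share of spots above background (87.8%). The detection of Elovl3 on it is therefore less sure. The listed level was above that of HFC at 6 of 6 weeks in HF75, as for 1.09% of genes, and in HF20, as for 10.3%, but nothing is read from these counts, since neither diet was above background at 4 of the weeks for HF75 and at 3 for HF20. In HF5 Elovl3 was not above background on any array. With the array labels and the 3 undetected LFC values taken as measured, LFC was at least 8.35-fold higher than HF5 in the mean, but with the exchange 1 HF5 array was above background and no such bound holds, and the limma difference of -3.28 (SE 0.82, adjusted p 1.00) was -2.39 with the exchange. With normexp the differences were 1.18 for HF75 against HFC, 1.90 for HF20 against HFC and -1.42 for HF5 against LFC, so the bounds for HF75 and HF5 too hold only without it.

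Cidea was lower in HF5 than in LFC at 6 of 6 weeks, as were 483 of 29297 genes (1.65%), and lower in HF75 than in LFC at 6 of 6, as were 347 of 29287 genes (1.18%). With the Week 12 arrays exchanged, HF5 at Week 12 was 6.98 against a saturated 6.05 in LFC, so that week has no readable order and Cidea was lower in HF5 at the other 5 weeks. In LFC it was lowest at Week 6 (-2.14) and highest at Week 12 (6.05) with a median of 3.57. HF5 ran from -3.17 to 3.58 with a median of 0.98, HF75 from -2.53 to 4.95 with a median of 2.30, HF20 from -1.79 to 6.98 with a median of 1.28, and HFC from -1.39 to 4.87 with a median of 0.30. All these ranges overlap, and the listed level in HF20 was above that in LFC at Week 6 and, against a saturated spot, at Week 12. The limma differences from LFC were -2.22 for HFC (SE 0.97, adjusted p 0.85), -2.17 for HF5 (SE 0.97, 1.00), -1.51 for HF20 (SE 0.97, 1.00) and -1.08 for HF75 (SE 0.97, 0.98). With the exchange at Week 12 the HF5 mean moved from 0.91 to 1.48 and the HF20 mean from 1.58 to 1.01.

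Ucp1 in HF20 depended on 1 array. Its mean was -0.68 ± 3.59 (SD, n = 6) with the array labels, -1.89 ± 0.88 with the Week 12 arrays exchanged and -2.11 ± 0.77 without Week 12 (n = 5). HF5 had a mean of -1.50 ± 1.67, which became -0.29 ± 3.71 with the exchange and -1.65 ± 1.82 without Week 12. HF75 had -0.91 ± 1.92 (n = 6), HFC -1.71 ± 2.67 and LFC -0.50 ± 2.88 over the same weeks. The difference between HF20 and HFC was 1.03 (SE 1.23) and was -0.18 (SE 1.20) with the exchange. The order of the doses for Ucp1 thus cannot be told from these arrays.

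The genes of the programme that are not among the 8 members were read from lists of related function. Over all genes 9.59% were called higher with Ucp1 and 17% in either direction, and none of the calls in these lists remained with the scan day as a covariate (0 genes called) or with time point and diet (Cidea alone). Of 22 brown and beige markers tested, 13 were higher with Ucp1 in limma and 1 lower, with a median slope of 0.24 per log2 unit of Ucp1 against 0.00 over all genes. They were led by Otop1, a proton channel (0.66, limma adjusted p 9.0e-10), Letmd1, an inner mitochondrial membrane protein (0.25, 1.1e-06), Clstn3 (0.48, 1.0e-05) and Acot11, an acyl-CoA thioesterase (0.43, 2.1e-05). With the muscle list in place of Ucp1, 10 of the 22 markers were called higher and 1 lower, where 4465 of 22710 genes were higher and 3637 lower, with a median slope of 0.11 per log2 unit of the muscle mean. The beige markers Tmem26, Tbx1 and Cited1 did not pass, with slopes of -0.04, -0.05 and 0.03. Of 14 lineage regulators, 4 were higher, namely Ppara (0.50, limma adjusted p 1.9e-05), Esrra (0.18, 0.0047), Ppargc1b (0.23, 0.0050) and Tfam (0.10, 0.043), while Ebf2 (-0.05) and Zic1 (0.12) did not pass. The muscle list in place of Ucp1 gave calls for the same 4 regulators.

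Signals that start heat production were split. Of 13 tested, 4 were higher with Ucp1 and 3 lower in limma. The higher ones were Nrg4, a factor secreted by brown fat (0.48, limma adjusted p 8.8e-05), Klb, the co-receptor for fibroblast growth factor 21 (0.43, 0.00074), and the beta-adrenergic receptors Adrb1 (0.23, 0.0012) and Adrb3 (0.38, 0.0061). The lower ones included Bmp4 (-0.29, limma adjusted p 5.7e-05) and Gdf15 (-0.47, 0.0035).

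Fuel-burning machinery moved with Ucp1 as well. Of 25 respiratory chain genes, 21 were higher and 0 lower in limma, with a median slope of 0.18, among them Ndufb3 of complex I (0.23, limma adjusted p 0.00035), Sdhb of complex II (0.31, 0.00039), Uqcrc2 of complex III (0.23, 0.00044) and Cycs, cytochrome c (0.22, 0.00046). With the muscle list in place of Ucp1, all 25 were called higher, as were 4465 of 22710 genes, with a median slope of 0.25 per log2 unit of the muscle mean. Of 10 genes of heat-making cycles that do not use Ucp1, 4 were higher, namely Slc25a44 (0.19, limma adjusted p 0.0013), Pnpla2, a triglyceride lipase (0.17, 0.0029), Dgat1 (0.21, 0.011) and Ckmt2 (0.60, 0.029), the last a creatine kinase of muscle mitochondria. Creatine cycle genes Ckb (-0.03), Gatm (0.02) and Slc6a8 (-0.11) did not pass. Among 6 relatives of Ucp1, Ucp3 (0.61, limma adjusted p 0.00042), which is best known from muscle, and the adenine nucleotide carrier Slc25a5 (0.15, 0.00087) were higher, and Ucp2 was not called (-0.06, 0.48).

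Sister forms of the members were read as well. Cox7a2, the form of Cox7a found in most tissues, was higher with Ucp1 by 0.18 (limma adjusted p 0.00036) and Cox8a by 0.10 (0.013), each a smaller slope than the 0.58 of Cox7a1 and the 0.69 of Cox8b, though differences between probes in these slopes were not tested and the Cox8a spot was saturated on 5 of 39 arrays. Elovl6, another fatty acid elongase, was higher by 0.44 (limma adjusted p 0.00012), and Elovl1 (-0.04) and Elovl5 (-0.00) were not called. Dio3, the deiodinase that inactivates thyroid hormone, was lower by -0.33 (limma adjusted p 0.0042), opposite in sign to Dio2.

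Marker genes of other cell types give the background to these counts. Of 12 mature adipocyte genes, 8 were higher with Ucp1 in limma and 0 lower, among them Gpd1 (0.38, limma adjusted p 0.00032), Acsl1 (0.34, 0.00038) and Adipoq, adiponectin (0.21, 0.037). Of 15 skeletal muscle genes, 8 were higher, among them Myl1 (0.38, limma adjusted p 0.0028), Ckm (0.56, 0.035) and Acta1 (0.28, 0.048). Of 9 macrophage genes 0 were higher and 2 lower (Cd14 at -0.30 and Itgax at -0.23), of 8 epithelial genes 3 were lower (Krt8 at -0.51, Krt18 at -0.38 and Epcam at -0.34), and of 10 lymphocyte and 6 endothelial genes 0 passed. The part of these cell types in the relation of the members with Ucp1 was not tested beyond the muscle and adipocyte covariates above. In HFC against LFC, 0 genes of any of these lists passed in limma.

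Genes were also ranked by their likeness to Ucp1, by Pearson's r over the 39 arrays among 22710 genes. Otop1 came first (r = 0.88, well above background on 20 of 39 arrays) and Cidea ranked next. Letmd1 (r = 0.82), 1700037H04Rik (r = 0.79), Ccdc90a (r = 0.78) and Gm6484 (r = 0.78) followed. Among the members themselves, the closest pairs were Cox7a1 with Cox8b (r = 0.95), Cox7a1 with Ppargc1a (r = 0.89), Cidea with Cox8b (r = 0.86) and Ucp1 with Cidea (r = 0.86). Prdm16 had its highest r with any member at 0.02, with Elovl3.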

How the data were processed

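Total RNA of mouse subcutaneous adipose tissue was read on 39 Agilent 1-colour (Cy3) arrays. Per the file headers, the spot intensity values came from Agilent Feature Extraction 10.5.1.1 (the submitters' processing notes name version 9.1), with background subtracted and no normalization between arrays. The authors also deposited a table of log2 ratios against the LFC array of the same age, made with GeneSpring GX, which was used to check labels and as an alternative. The deposited flags of each spot (above background, saturated, outlier), coded 0 or 1, were used to filter.

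The processed intensity was put on the log2 scale, the 75th percentile of the array was subtracted, spots flagged as outliers were left out, and replicate spots were averaged. A gene was represented by its probe with the highest mean. Genes well above background on at least 10 arrays (LFC and HFC fit), 8 (late against early) or 6 (other fits) were tested with limma 3.58.1 in R 4.3.3, two-sided, with Benjamini-Hochberg adjustment over all genes tested and a threshold of 0.05. Time point or week was a block in the diet fits, diet a covariate for the change per week and for late against early, and the relation with Ucp1 had no covariate. Correlations were tested with 100000 permutations in scipy 1.17.1. A lower bound on a fold was set where a gene was below background on every array of a group. The fits were tested on simulated data.

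Groups came from the labels. Replicate numbers follow the time points and pair nothing else. The number of arrays limits the precision. Members, lists and tests were chosen with earlier results of these data known. Named genes were the 8 members, a few isoforms, family members and markers, up to 4 list genes that passed per list and fit (with some others of the same lists named after their values were seen), and the 5 genes most like Ucp1. A further list gene that passed is counted in its list but not reported here. Alternatives were normexp with an offset of 50, quantile normalization, filters, all probes, outlier spots kept, other priors and weights, blocks and covariates, each time point left out, the Week 12 exchange and the deposited ratios. No promoter of Cidea or Elovl3 and no protein sequences were used here.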

Additional observations from a re-analysis of the deposited data

Results flagged for a closer look

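In 7 of 40 sets of arrays (1 gene in 1 diet), a single array stood farther from the others than Dixon's 95% limit, which chance passes in about 1 in 20 sets. On the array labelled HF20 at Week 12, Ucp1 was at 6.51 (next highest -0.93), Cox7a1 at 6.07 (next 1.90) and Dio2 at -2.11 (next -4.07). Cidea was at 6.98 on this array, above the saturated spots of 3 other arrays (6.05 to 6.27), whose order against it cannot be told. Its muscle list mean was -0.40, and its label conflicts with the deposited table. The HFC array of Week 3 stood apart from the other HFC arrays of Week 3 to Week 18 in Ucp1 (3.37, next -1.48) and in Ppargc1a (0.31, next -2.50), with Elovl3 not well above background (-7.54). The HF75 array of Week 3 stood apart in Ppargc1a (3.33, next -1.93), with a muscle list mean of 7.45. The HF5 array of Week 15 stood apart in Dio2 (-1.49, next -3.51), with Ucp1 at -2.47. The causes were not tested.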

How the results depend on the processing

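For the 11 results on diet and time with 0 members called, 241 of 242 alternatives also gave 0. The exception was HF20 against HFC with normexp background correction, where 2 members passed (Dio2 at 1.48, limma adjusted p 0.025, and Elovl3 at 1.90, 0.015). There 8126 of 21090 genes passed and the median of all genes was 0.36, against 0.05 without normexp. For the relation with Ucp1 the count of 6 members (3863 genes) fell to 0 with the scan day as a covariate (0 genes), 1 with time point and diet (1 gene), 1 with these and the Week 12 arrays exchanged (3 genes) and 0 over Day 1 to Week 0 alone (0 genes, 9 arrays, where r was 0.91 for Cidea and 0.88 for Cox7a1). Leaving out 1 time point gave 4 to 6 members. Without Day 6, 4 members and 905 genes passed, and without Week 15, 6 members and 2363 genes. Counts of genes were 6732 with array quality weights, 1380 with the muscle list and 145 with the adipocyte list as a covariate, 245 over Week 3 to Week 18 alone and 2082 without the 6 arrays highest in Acta1. The last, late against early, the muscle list in place of Ucp1 and the covariates with the exchange were chosen after seeing the data. Cause of these changes was not tested, except that some alternatives hold fewer arrays.

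Single genes near 0 changed sign. For HFC against LFC, Dio2 was 0.048 with quantile normalization and 0.17 with the muscle covariate, and ran from -0.29 to 0.15 with 1 time point left out, above 0 when that was Week 6, 9, 12 or 15. Ppargc1a was 0.070 with the scan day as block and 0.10 with array quality weights, and ran from -0.46 to 0.27 with 1 time point left out, above 0 when that was Week 12. For the slope on Ucp1, Ppargc1a was -0.059 with the scan day. That of Prdm16 ran from -0.057 to 0.016 with 1 time point left out, and was 0.11 with the scan day, 0.095 with time point and diet, 0.11 with these and the exchange, 0.066 with the muscle list, 0.043 with the adipocyte list, 0.026 over Week 3 to Week 18 and 0.019 without the 6 arrays highest in Acta1. The slide as a random block could not be fitted for HFC against LFC over 10 time points, where 1 slide held both diets. The time point as block pairs LFC and HFC arrays, and without it 0 members were called too. Beyond that, no paired analysis was possible because the labels give no other number shared by the groups. Elovl3 below background and saturated spots of Cidea, Cox7a1, Cox8b, Cox8a and Ucp1 limit the size of their differences.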
